A study of Mus musculus with 18 samples.

Results

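Chaperones fold, hold and disassemble other proteins, and the testis carries germ cell forms of them beside the forms that every cell uses. The 10 genes described are Hspa2, Hspa1l, Hspa8 and Hspa5 of the HSP70 family, Hspa4l and Hsph1 of the HSP110 family, Hsp90aa1 and Hsp90ab1 of the HSP90 family, the mitochondrial chaperonin Hspd1 and the J protein Dnajb1. They were picked by name from the 20979 genes of the expression table, with earlier results of these data known, and all 10 passed the filter on low values that left 13874 genes for testing. RNA had been sequenced from the testes of 10-week-old mice of the outbred ICR stock, in 18 libraries, 3 for each of 6 groups.

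HFD_STZ_AOS_FMT mice had been fed a high fat diet, had been given STZ (streptozotocin, which kills pancreatic beta cells) and had had a fecal microbiota transfer labelled AOS at 10 mg/kg. HFD_STZ_control_FMT mice had the diet with STZ and a transfer labelled control. HFD_STZ_AOS mice had the diet with STZ and AOS at 10 mg/kg, AOS mice had that dose alone, HFD_STZ mice had the diet with STZ alone, and control mice had none of these. AOS is an abbreviation that the labels do not spell out, and the labels give neither the length of the diet, nor the STZ dose, nor whether the libraries of a group came from separate mice. The p-values therefore measure the spread between these libraries, which may be technical in part. The series asked how transferred microbiota act on a testis damaged by the diet with STZ.

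HSP70 proteins bind exposed stretches of unfolded protein in a cycle driven by ATP. J proteins such as Dnajb1 deliver substrates to them and start ATP hydrolysis, and HSP110 proteins such as Hspa4l and Hsph1 exchange the nucleotide so that the substrate is let go. HSP90 proteins act later on nearly folded clients such as kinases and steroid receptors, and the HSP60 ring encoded by Hspd1, with its lid Hspe1, folds proteins inside mitochondria. In most tissues heat shock factor 1 raises many of these genes through heat shock elements, which are inverted repeats of the letters GAA. Hspa5 answers instead to unfolded protein in the endoplasmic reticulum through the ER stress response element.

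Stretches of promoter sequence are given because the members differ in whether they hold these elements. RefSeq promoter windows of 300 bases, 250 before and 50 after a start in build GRCm38.p6, were matched for 7 of the 10 members, while Hspa8, Hsp90aa1 and Hsp90ab1 had no entry in the table used here. Capitals mark a heat shock element in the stretches of Hspd1 and Hsph1, the ER stress response element in that of Hspa5, and a CCAAT box (CCAAT or its reverse complement) or the short cAMP response element TGACGT in those of Hspa1l and Hspa2. All are written 5′ to 3′ on the strand of the gene.
Hspd1 (chr1:55088053-55088082, minus strand): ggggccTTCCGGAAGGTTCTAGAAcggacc
Hsph1 (chr5:149636351-149636380, minus strand): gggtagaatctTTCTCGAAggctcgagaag
Hspa5 (chr2:34772020-34772049, plus strand): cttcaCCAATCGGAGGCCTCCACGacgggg
Hspa1l (chr17:34972453-34972702, plus strand): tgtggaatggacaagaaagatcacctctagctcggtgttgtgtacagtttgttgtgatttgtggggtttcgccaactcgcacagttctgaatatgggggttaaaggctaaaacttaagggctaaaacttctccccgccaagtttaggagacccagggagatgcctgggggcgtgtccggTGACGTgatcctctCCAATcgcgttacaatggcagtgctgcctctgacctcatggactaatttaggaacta
Hspa2 (chr12:76404290-76404369, plus strand): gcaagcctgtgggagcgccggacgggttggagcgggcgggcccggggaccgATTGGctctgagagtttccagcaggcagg

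The Hspd1 stretch begins 150 bases before one of its RefSeq starts and holds a heat shock element of 3 units, that is GAA, 2 bases, TTC, 2 bases and GAA, in both orientations, which overlap each other, with the first match at position -144. That motif, searched on both strands, lies in 0.6027% of 32851 RefSeq windows. The stretches of Hspd1, Hsph1 and Hspa5 are 30 bases long because GENCODE places most of their bases in annotated exons. Hsph1 has the 2-unit form, TTC, 2 bases and GAA, at position -33 from one of its RefSeq starts, a form found in 8.52% of windows. It also has a 3-unit match after that start, at position 37. Counted from its other RefSeq start, these matches lie at positions -54 and 16. Hspa5 has the ER stress response element, CCAAT, 9 bases and CCACG, at position -65, and 0.1187% of windows hold it. Its first letters are also a CCAAT box. No form of the heat shock element searched was found in the windows of Hspa2, Hspa1l, Hspa4l or Dnajb1. The CCAAT box in Hspa2 lies at position -29 and that in Hspa1l at position -57, and 37.4% of windows hold one. Windows of Hspd1, Hspa5, Hsph1 and Dnajb1 hold CCAAT boxes too. TGACGT lies at position -71 in Hspa1l and at position -157 in Hspa5, and 7.51% of windows hold it. These matches describe the letters of the windows, and binding was not measured. The motifs were listed after the sequences had been seen.

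The members covered a wide span of levels, with Hsp90aa1 and the germ cell forms high in it. RPKM scales reads to gene length and to library size, so levels of different genes can be set side by side. Over the 18 libraries Hsp90aa1, the HSP90 form that mouse germ cells need to complete meiosis, averaged 706 ± 36.0 RPKM (SD, n = 18), and 99.5% of the tested genes were lower. Hspa2, the HSP70 that meiotic spermatocytes require in the mouse, averaged 455 ± 17.5 RPKM. Hspa1l, an HSP70 of spermatids, averaged 369 ± 12.1 RPKM, and Hspa4l, an HSP110 whose loss lowers male fertility in mice, averaged 294 ± 9.58 RPKM. The remaining members were lower.

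Hspa5, the chaperone of the endoplasmic reticulum, averaged 186 ± 8.15 RPKM, and Hspa8, the constitutive cytosolic HSP70, averaged 129.98 ± 7.43 RPKM. Hsp90ab1, the constitutive HSP90, averaged 127 ± 7.21 RPKM and Dnajb1 averaged 107 ± 4.47 RPKM. Hspd1 averaged 18.4 ± 1.80 RPKM and Hsph1, the stress-inducible HSP110, averaged 15.3 ± 1.00 RPKM (SD, n = 18 for each). The order from Hsp90aa1 to Hsph1 held in 18 of 18 libraries for all neighbouring pairs but those of Hspa8 over Hsp90ab1, in that order in 13 of 18, and of Hspd1 over Hsph1, in that order in 16 of 18. Those neighbours overlapped across libraries.

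Ratios between related forms varied to different extents. The ratio of Hsp90aa1 to Hsp90ab1 in RPKM lay between 4.71 and 6.30 across the 18 libraries, and that of Hspa2 to Hspa8 between 3.17 and 4.14. Hspa4l stood 3.85 to 4.18 times above Hspa4, its relative in all tissues. Hspa1l stood 91.9 to 164 times above the sum of Hspa1a and Hspa1b, the heat-inducible HSP70 genes beside it on chromosome 17, which averaged 0.759 and 2.12 RPKM. Both share some sequence with Hspa1l, as given below. Hspd1 and its lid Hspe1 share a start region head to head, and their ratio varied from 0.477 to 0.892. It lay between 0.522 and 0.723 in AOS testes and between 0.788 and 0.892 in control testes, without overlap. Both transfer groups also lay below control, HFD_STZ_AOS_FMT at 0.477 to 0.754 and HFD_STZ_control_FMT at 0.591 to 0.702. HFD_STZ_AOS (0.650 to 0.791) and HFD_STZ (0.745 to 0.831) overlapped with control. Hspd1 averaged 18.7 RPKM in control, 16.7 in AOS, 19.1 in HFD_STZ_AOS_FMT and 18.3 in HFD_STZ_control_FMT testes. Hspe1, which is not a member, averaged 21.9, 26.0, 30.3 and 27.6 RPKM in that order. Its means were 26.9 RPKM in HFD_STZ_AOS and 24.5 RPKM in HFD_STZ testes. In the transfer groups Hspe1 thus lay farther from control than Hspd1 did. The groups of this ratio were set side by side after the values were seen and were not tested. No share over other pairs of genes was computed.

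**Figure D1:**
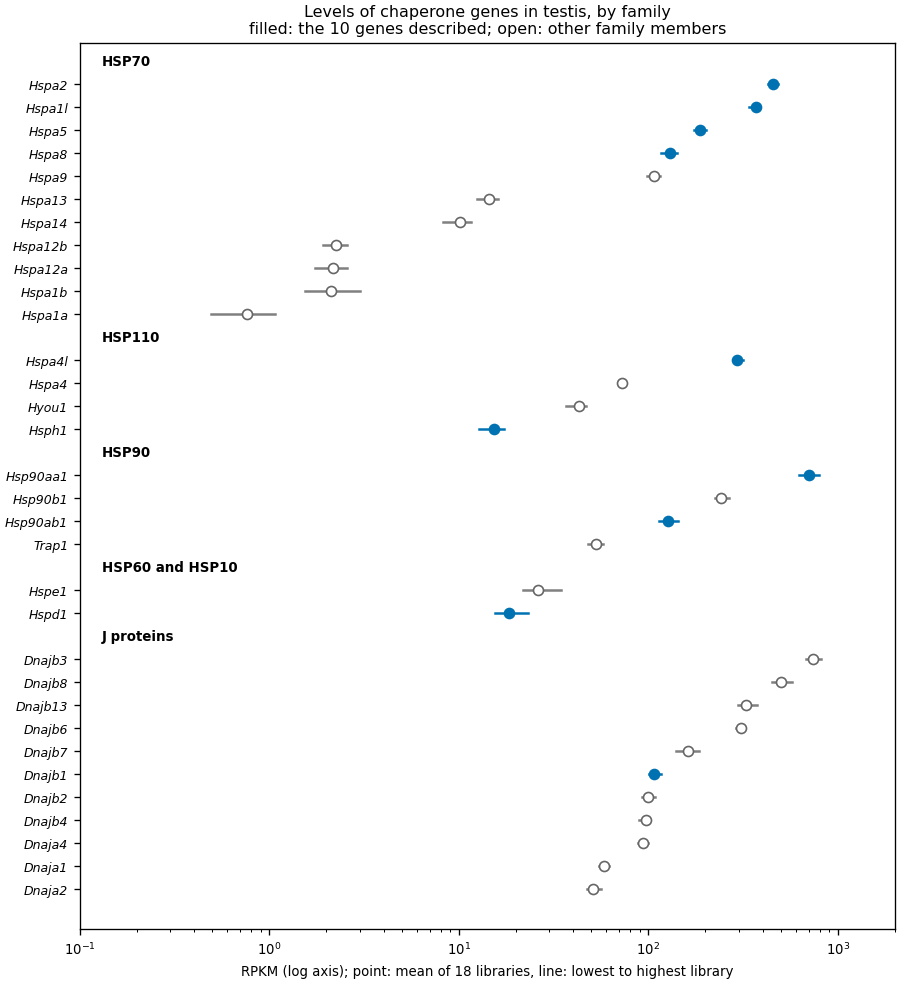
Mean level of each gene over 18 testis libraries in RPKM on a log axis, for the HSP70, HSP110, HSP90, HSP60 and HSP10 families and 11 J proteins, with a line from the lowest to the highest library and filled points for the 10 members. Hsp90aa1 at 706 RPKM and Dnajb3 at 743 RPKM lie highest among the genes plotted and Hspa1a at 0.759 RPKM lowest, small heat shock proteins and TRiC subunits not being plotted.

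Dnajb1 was not the leading J protein. Dnajb3, Dnajb8 and Dnajb13, which are known from testis, averaged 743 ± 36.3, 502 ± 34.8 and 329 ± 23.7 RPKM, and Dnajb6 averaged 308 ± 10.8 RPKM (SD, n = 18 for each). Within the HSP90 family, Hsp90b1 of the endoplasmic reticulum averaged 241 ± 11.5 RPKM and stood between Hsp90aa1 and Hsp90ab1. Of the heat shock factors, Hsfy2 averaged 111 ± 6.26 RPKM, Hsf1 averaged 18.05 ± 1.27 RPKM, Hsf2 averaged 23.5 ± 1.65 RPKM and Hsf5 averaged 73.2 ± 5.10 RPKM.

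Several of these rows can carry reads of other genes. GENCODE vM21, on the mouse build GRCm38, places Gm10501 antisense over Hspa1l (chr17:34972703-34979285, plus strand), and 71.4% of the 50-base words of the Hspa1l transcripts occur in it too on one strand or the other. Whether reads were assigned by strand is not given in the sources used here, so these genes cannot be told apart. Other annotated genes share 58.5% of the words of Hsp90aa1 (chr12:110690605-110702728, minus strand), 52.7% of those of Hspa8 (chr9:40800984-40810087, plus strand) and 44.8% of those of Hspd1 (chr1:55077835-55088243, minus strand). Hspa2 (chr12:76404176-76406938, plus strand), Hspa5 (chr2:34771970-34777547, plus strand) and Hsph1 (chr5:149614287-149636376, minus strand) shared none, and Hsp90ab1 shared 4.49%. Hspa1a holds 9.57% and Hspa1b 7.72% of the words of Hspa1l. How the authors handled reads with several positions is not given either, so the levels of Hspa1l, Hsp90aa1, Hspa8 and Hspd1 are uncertain to that extent. The ratio of Hspa1l to the sum of Hspa1a and Hspa1b is uncertain for the same reason. So are those of Hspd1 to Hspe1, of Hsp90aa1 to Hsp90ab1 and of Hspa2 to Hspa8.

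The libraries were testis by their markers. The 7 markers of elongating spermatids summed to 44098 to 60149 RPKM per library, and spermatocyte, Sertoli and Leydig markers were present in all groups. In 4 libraries, 1 each from HFD_STZ_AOS_FMT, HFD_STZ_control_FMT, HFD_STZ_AOS and control, Crisp1, an epididymal gene, stood above 100 RPKM. Adipose tissue markers summed to 14.5 to 149.7 RPKM per library. In bulk tissue, fewer cells of a type and less RNA per cell cannot be told apart. Total RPKM per library ran from 588081 to 646822, and the 10 members together made up 0.359% to 0.432% of it.

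The levels of the 10 members differed little between the groups. None of the 10 passed the threshold of 0.05 on the Benjamini-Hochberg adjusted p over all 13874 genes in any of 9 comparisons fitted with limma, nor in the F test among the 6 groups, which called 0.0432% of all genes. The smallest adjusted p of any member was 0.0968, for Hsph1 in the main effect of HFD_STZ, and the smallest in the F test was 0.157, again for Hsph1, the 1 member with an unadjusted p under 0.05 in it beside 21.1% of all genes. Each difference below is on the log2(RPKM + 1) scale, with the standard error of the fit. Of the 90 differences between groups, 11 had an unadjusted p under 0.05, while the share of all genes at that p ran from 4.58% to 20.7% over the 9 comparisons.

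**Figure D2:**
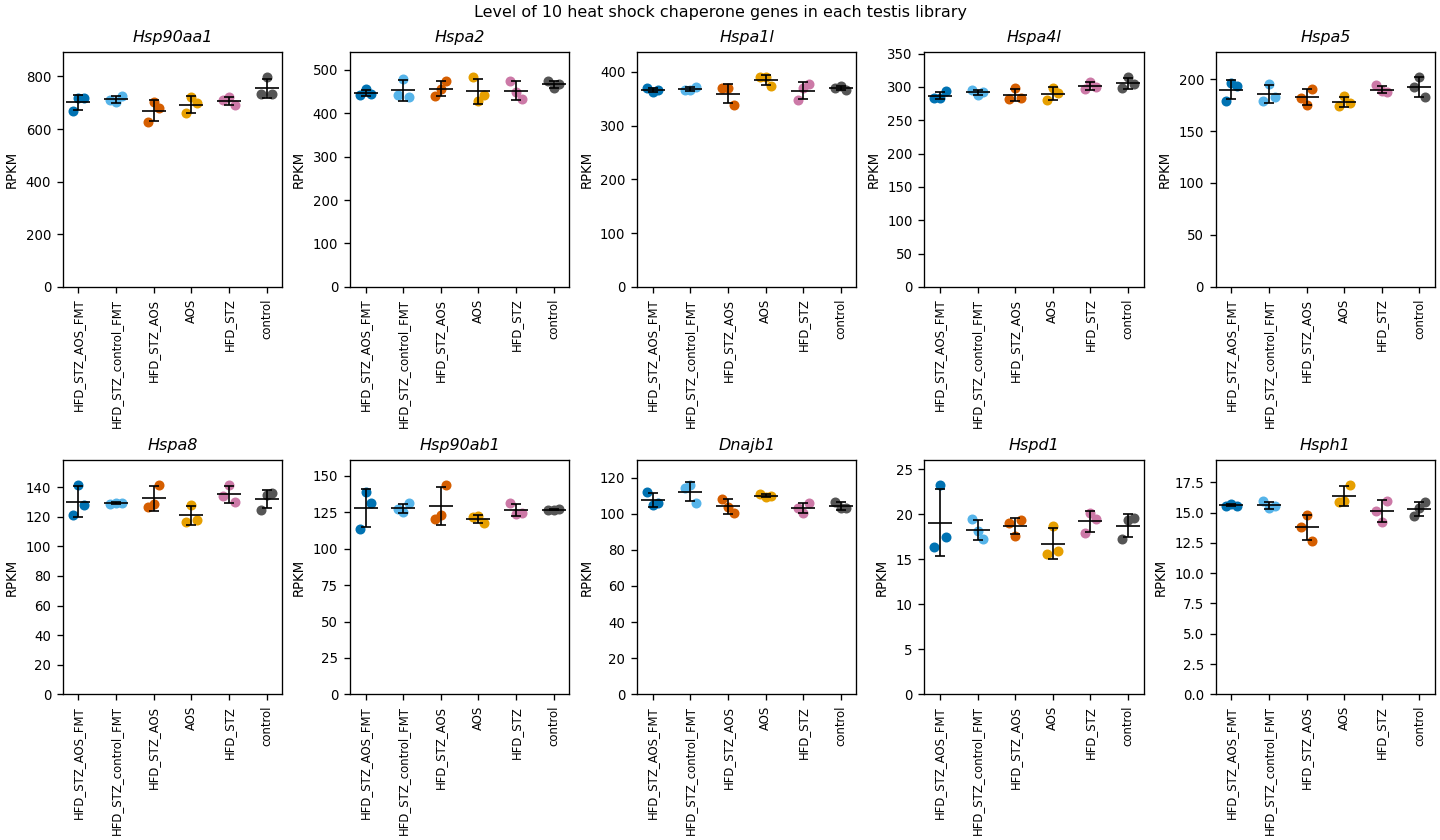
Level of each member in RPKM (axes from 0) in the 3 libraries of each group, with the mean as a bar and the SD as whiskers. Within each gene the groups lie close together, and the widest relative spread is that of Hspd1, from 15.6 to 23.3 RPKM.

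The germ cell forms of HSP70 differed little between groups. Hspa2 had 441, 455 and 444 RPKM in HFD_STZ_AOS_FMT, 442, 480 and 437 in HFD_STZ_control_FMT, 440, 456 and 475 in HFD_STZ_AOS, 483, 429 and 441 in AOS, 475, 449 and 433 in HFD_STZ and 474, 458 and 469 in control testes. The groups of each comparison made overlapped, and its F test gave an adjusted p of 0.897 (limma). Hspa1l had 370, 362 and 367 RPKM in HFD_STZ_AOS_FMT, 366, 367 and 372 in HFD_STZ_control_FMT, 370, 370 and 339 in HFD_STZ_AOS, 390, 390 and 374 in AOS, 347, 371 and 377 in HFD_STZ and 370, 374 and 367 in control testes. The lowest library was 1 of HFD_STZ_AOS, and AOS alone held the highest 2.

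Hspa1l averaged 362 ± 15.3 RPKM in the 6 libraries with HFD_STZ and no transfer and 378 ± 10.1 RPKM in the 6 without HFD_STZ (SD, n = 6 each), a difference of -0.06 ± 0.03 with an adjusted p of 0.255 (limma). The library sets overlapped for all 10 members, beside 1.61% of all genes higher and 0.238% lower without overlap.

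The constitutive HSP70 genes were also near level. Hspa8 had 121, 142 and 128 RPKM in HFD_STZ_AOS_FMT, 129, 129 and 130 in HFD_STZ_control_FMT, 127, 129 and 142 in HFD_STZ_AOS, 117, 128 and 118 in AOS, 134, 142 and 130 in HFD_STZ and 125, 135 and 136 in control testes. AOS had the lowest mean, 121 ± 6.24 RPKM, and HFD_STZ the highest, 135 ± 5.88 RPKM (SD, n = 3 each). Hspa5 had 179, 196 and 194 RPKM in HFD_STZ_AOS_FMT, 179, 195 and 183 in HFD_STZ_control_FMT, 182, 175 and 190 in HFD_STZ_AOS, 174, 184 and 177 in AOS, 194, 188 and 188 in HFD_STZ and 193, 202 and 183 in control testes. The AOS libraries reached only just into the range of the control libraries.

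The HSP110 genes included the member with the smallest p-values. Hsph1 had 15.6, 15.7 and 15.6 RPKM in HFD_STZ_AOS_FMT, 15.9, 15.4 and 15.5 in HFD_STZ_control_FMT, 13.8, 14.8 and 12.7 in HFD_STZ_AOS, 15.9, 15.99 and 17.3 in AOS, 15.2, 14.2 and 15.99 in HFD_STZ and 14.7, 15.4 and 15.8 in control testes. HFD_STZ_AOS held 2 libraries below every other library of the series, and AOS held the highest. Hspa4l had 283, 284 and 293 RPKM in HFD_STZ_AOS_FMT, 295, 288 and 292 in HFD_STZ_control_FMT, 282, 299 and 283 in HFD_STZ_AOS, 280, 299 and 290 in AOS, 297, 308 and 299 in HFD_STZ and 298, 315 and 304 in control testes. Every library of either transfer group was below every HFD_STZ library. So were 11.6% of all genes for HFD_STZ_AOS_FMT and 16% for HFD_STZ_control_FMT. With the trend on transcript length removed, these Hspa4l differences turned to 0.03 and 0.06 in that order. The length used is that of the longest annotated transcript, 9479 bases for Hspa4l.

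Hsp90aa1 had 668, 718 and 718 RPKM in HFD_STZ_AOS_FMT, 708, 701 and 727 in HFD_STZ_control_FMT, 626, 703 and 679 in HFD_STZ_AOS, 659, 720 and 700 in AOS, 709, 723 and 693 in HFD_STZ and 732, 797 and 734 in control testes. The control libraries held the highest 3 values of the 18. Hsp90ab1 had 114, 139 and 131 RPKM in HFD_STZ_AOS_FMT, 127, 125 and 131 in HFD_STZ_control_FMT, 121, 123 and 144 in HFD_STZ_AOS, 122, 123 and 117 in AOS, 131, 124 and 124 in HFD_STZ and 127, 127 and 128 in control testes. The control libraries of Hsp90ab1 lay within 1 RPKM of each other, and the widest groups were HFD_STZ_AOS_FMT and HFD_STZ_AOS.

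Hspd1 had 16.4, 23.3 and 17.5 RPKM in HFD_STZ_AOS_FMT, 19.5, 18.1 and 17.2 in HFD_STZ_control_FMT, 19.0, 17.6 and 19.4 in HFD_STZ_AOS, 15.6, 18.7 and 15.95 in AOS, 17.96, 20.2 and 19.5 in HFD_STZ and 17.3, 19.4 and 19.6 in control testes. A single HFD_STZ_AOS_FMT library stood above the rest. Dnajb1 had 112, 105 and 106 RPKM in HFD_STZ_AOS_FMT, 114, 116 and 106 in HFD_STZ_control_FMT, 108, 104 and 100.3 in HFD_STZ_AOS, 111, 109 and 110 in AOS, 103, 100.5 and 106 in HFD_STZ and 107, 103 and 103 in control testes. HFD_STZ_control_FMT lay above HFD_STZ in every library, as did 8% of all genes, and AOS above control, as did 7.76%. The adjusted p of Dnajb1 was 0.197 and 0.425 in that order (limma).

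For the diet with STZ against control, 0 of 10 members were called by limma, as were 0% of all genes, and 0 of 10 members against 8.3% of all genes had an unadjusted p under 0.05. The 95% confidence intervals of the 10 differences lay within -12.7% and 19.0%. Hsp90aa1 was the 1 member without overlap, with 708 ± 15.1 RPKM in HFD_STZ and 754 ± 37.2 RPKM in control testes (SD, n = 3 each). That difference of -0.09 ± 0.05 had an adjusted p of 0.665, and 4.53% of all genes were lower and 11.7% higher without overlap.

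**Figure D3:**
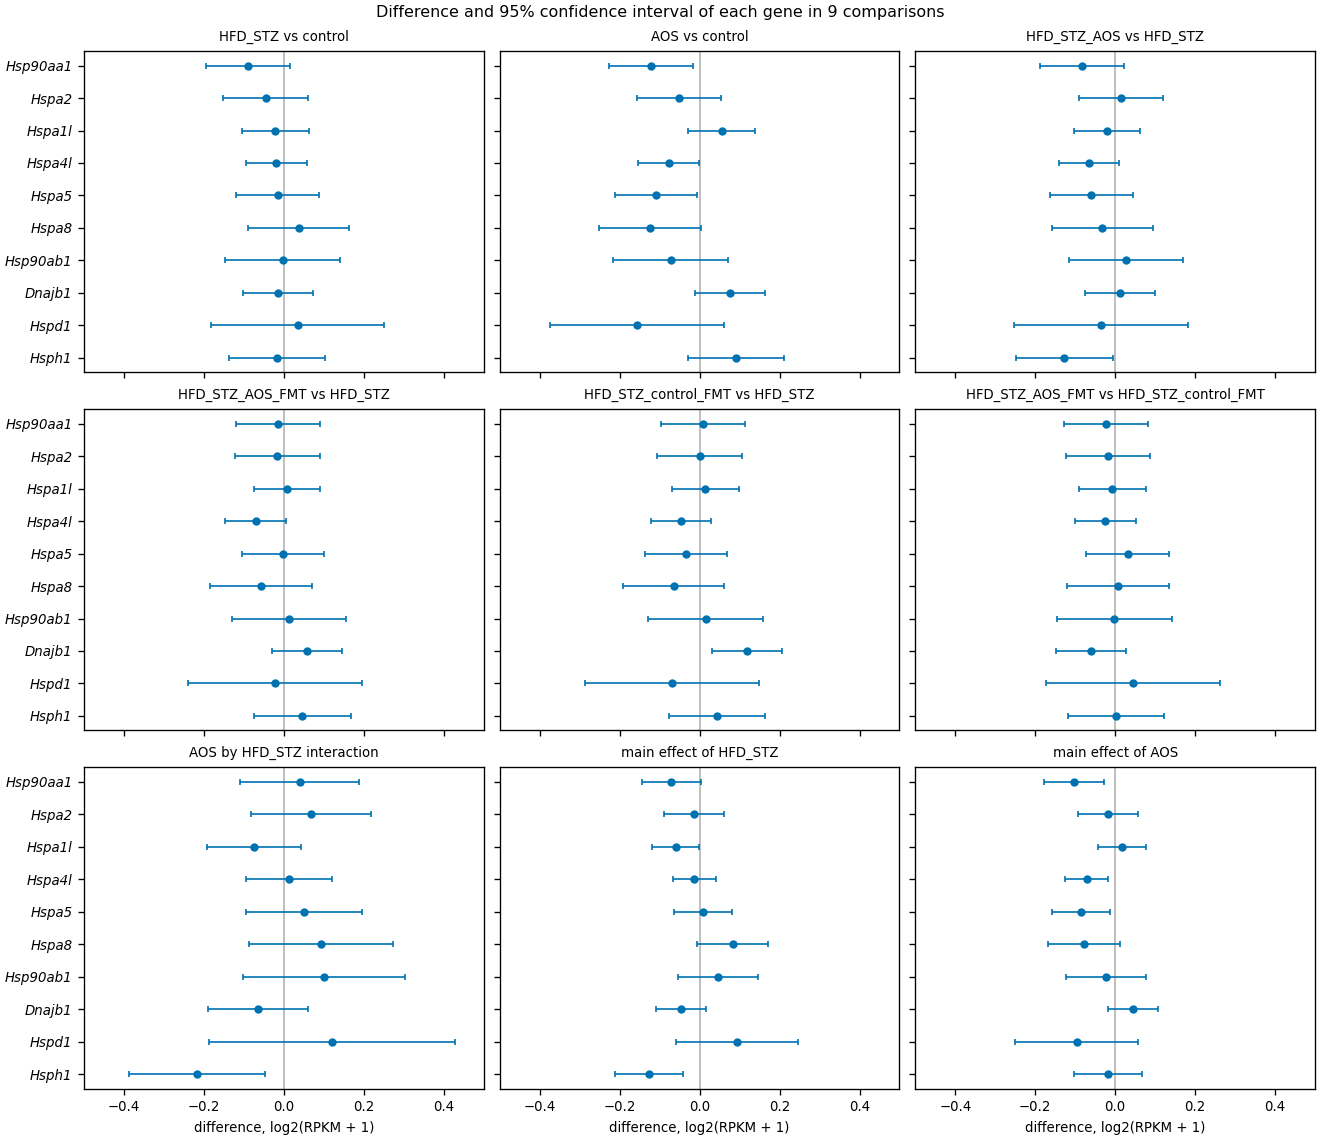
Difference in log2(RPKM + 1) of each member (points) with its 95% confidence interval (bars) in 9 comparisons, the first-named group minus the second. Hsph1 in the interaction of AOS and HFD_STZ, at -0.22, lies farthest from 0.

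For AOS against control, 0 of 10 members and 0% of all genes were called, and 3 of 10 members against 13.9% of all genes had an unadjusted p under 0.05. Hsp90aa1 averaged 693 ± 30.9 RPKM in AOS and 754 ± 37.2 RPKM in control testes (SD, n = 3 each), a difference of -0.12 ± 0.05 with an adjusted p of 0.304 (limma). Hspa5 averaged 178 ± 4.96 RPKM in AOS and 192 ± 9.66 RPKM in control testes, with an adjusted p of 0.332, and Hspa4l 290 ± 9.72 and 306 ± 8.47 RPKM in that order of groups, with an adjusted p of 0.351. With the trend on transcript length removed, that Hspa4l difference turned to 0.01 (adjusted p 0.976). Without overlap, Hsph1 and Dnajb1 were higher in AOS, as were 7.76% of all genes, and Hsp90aa1 and Hsp90ab1 were lower, as were 14.8% of all genes. The intervals of the 10 differences lay within -22.8% and 15.8%. Beside these values, the elongating spermatid markers summed to 55256 to 56990 RPKM in AOS and 44098 to 50287 RPKM in control testes, and the Leydig markers to 2557 to 3483 and 3491 to 4005 RPKM in that order. Their part in the result was not tested.

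For HFD_STZ_AOS against HFD_STZ, 0 of 10 members and 0% of all genes were called by limma, and 1 of 10 members against 12.5% of all genes had an unadjusted p under 0.05. Hsph1 averaged 13.8 ± 1.06 RPKM in HFD_STZ_AOS and 15.1 ± 0.891 RPKM in HFD_STZ testes (SD, n = 3 each), a difference of -0.13 ± 0.06 with an adjusted p of 0.373 (limma). No member was without overlap, beside 7.37% of all genes higher and 9.8% lower. The intervals lay within -16.1% and 13.4%.

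Among the transfers, HFD_STZ_AOS_FMT against HFD_STZ had 0 of 10 members called beside 0.0144% of all genes, and 0 of 10 with an unadjusted p under 0.05 beside 14.5% of all genes. Hspa4l averaged 287 ± 5.56 RPKM in HFD_STZ_AOS_FMT and 301 ± 5.69 RPKM in HFD_STZ testes (SD, n = 3 each), without overlap, beside 11.6% of all genes that were lower and 7.82% that were higher without overlap. Its adjusted p was 0.372 (limma), and with the trend on transcript length removed its difference turned to 0.03. HFD_STZ_control_FMT against HFD_STZ had 0 of 10 called beside 0.00721% of all genes, and 1 of 10 with an unadjusted p under 0.05 beside 16.2% of all genes. That member was Dnajb1, at 112 ± 5.25 RPKM in HFD_STZ_control_FMT and 103 ± 2.82 RPKM in HFD_STZ testes (SD, n = 3 each), a difference of 0.12 ± 0.04 with an adjusted p of 0.197 (limma). Dnajb1 was higher without overlap, as were 8% of all genes, and Hspa4l and Hspa8 were lower without overlap, as were 16% of all genes. The Hspa4l difference again turned with the length trend removed, to 0.06. Beside these values, the adipose markers summed to 14.5 to 26.4 RPKM in HFD_STZ testes. They summed to 52.3 to 145.5 RPKM in HFD_STZ_AOS_FMT and 43.0 to 149.7 RPKM in HFD_STZ_control_FMT testes. All 7 elongating spermatid markers were higher in either transfer group, with 0 called. Of 6 Leydig markers, 4 were higher in HFD_STZ_AOS_FMT with 0 called, and 1 in HFD_STZ_control_FMT with 1 called. The part of these in the result was not tested.

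These comparisons share the HFD_STZ libraries. HFD_STZ_AOS_FMT against HFD_STZ_control_FMT had 0 of 10 members called beside 0.0216% of all genes, and 0 of 10 with an unadjusted p under 0.05 beside 4.58% of all genes. Its 10 differences lay between -0.06 and 0.05 with intervals within -11.3% and 19.98%. No member was without overlap, beside 5.15% of all genes higher and 3.27% lower.

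For the interaction of AOS with HFD_STZ, that is whether AOS acted differently with and without the diet with STZ, 0 of 10 members and 0% of all genes were called, and 1 of 10 against 4.61% of all genes had an unadjusted p under 0.05. For Hsph1 the AOS difference with the diet and STZ less that without it was -0.22 ± 0.08, with an adjusted p of 0.999 (limma). The main effect of HFD_STZ set 6 libraries against 6, without the transfers, and called 2.85% of all genes (396) but 0 of 10 members. That number of genes was not stable. Leaving out 1 library gave 110 without HFD_STZ 1, 122 without AOS 3, 124 without HFD_STZ_AOS 3, 129 without control 1, 136 without HFD_STZ 3, 151 without control 2, 157 without AOS 1, 180 without control 3 and 695 without HFD_STZ_AOS 2. The other omissions of 1 library gave 264 to 434. Without the 4 libraries high in Crisp1 the number was 36. At an unadjusted p under 0.05 stood 2 of 10 members beside 18.8% of all genes. Hsph1 averaged 14.4 ± 1.14 RPKM with HFD_STZ and 15.8 ± 0.850 RPKM without it (SD, n = 6 each), a difference of -0.13 ± 0.04. Its adjusted p of 0.0968 became 0.0386 when 1 HFD_STZ_AOS library, replicate 2, was left out. The 2 parts of that Hsph1 average differed. Without AOS the means were 15.1 RPKM in HFD_STZ and 15.3 RPKM in control testes, a difference of -0.02 ± 0.06. With AOS they were 13.8 RPKM in HFD_STZ_AOS and 16.4 RPKM in AOS testes. Both transfer groups, which also had the diet with STZ, averaged 15.6 RPKM.

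The main effect of AOS called 2.34% of all genes (325) and 0 of 10 members. That number was 0 without AOS 1, without HFD_STZ 2, without HFD_STZ_AOS 1 or without control 2, was 1 without AOS 3, 3 without HFD_STZ 1, 57 without control 1 and 176 without control 3, and was 779 without HFD_STZ_AOS_FMT 1. The other omissions of 1 library gave 238 to 374. With the length trend removed the number was 0, and without the 4 libraries high in Crisp1 it was 76. Among the members, 3 of 10 had an unadjusted p under 0.05, beside 20.7% of all genes. Hsp90aa1 averaged 681 ± 34.3 RPKM with AOS and 731 ± 35.8 RPKM without it, Hspa5 180 ± 6.23 and 191 ± 6.60 RPKM, and Hspa4l 289 ± 8.53 and 303 ± 6.85 RPKM, in that order (SD, n = 6 each). The differences were -0.10 ± 0.04, -0.08 ± 0.03 and -0.07 ± 0.03, with adjusted p of 0.119, 0.172 and 0.127 (limma). With each library's trend on transcript length removed, the Hspa4l difference was 0.01 (adjusted p 0.928). Of 7 elongating spermatid markers 6 were higher with AOS and 4 were called (median difference 0.24), of 6 Leydig markers 0 were higher and 0 called (median -0.24), and of 7 spermatocyte markers 1 was higher and 2 were called (median -0.05). The elongating spermatid markers summed to 51504 to 59314 RPKM with AOS and 44098 to 51674 RPKM without it, and the Leydig markers to 2557 to 4156 and 3491 to 4479 RPKM in that order. The part of these in the result was not tested. No member was without overlap, beside 1.16% of all genes higher and 2.1% lower.

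Across the 18 libraries some members varied together. Pearson correlations of log2(RPKM + 1) were computed for 45 pairs, each with 100000 permutations, and the p-values are not adjusted for that number. Hspa8 and Hspd1 had r = 0.85 and rho = 0.81, with p = 1e-05, the smallest that permutations can give, for r and 9.0e-05 for rho. Leaving out the 2 libraries farthest from the median of Hspa8 gave r = 0.84, and deviations from the group means gave r = 0.81. Hspa4l and Hsp90aa1 had r = 0.80 and rho = 0.74 (permutation p = 4.0e-05 and 0.00066), r = 0.66 without the 2 farthest libraries and r = 0.80 within groups. With the trend on length removed, r was 0.45 for Hspa4l and Hsp90aa1 and 0.79 for Hspa8 and Hspd1. Hspa8 and Hspd1 are both rows that share sequence with other genes, as given above, and the part of this was not tested.

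**Figure D4:**
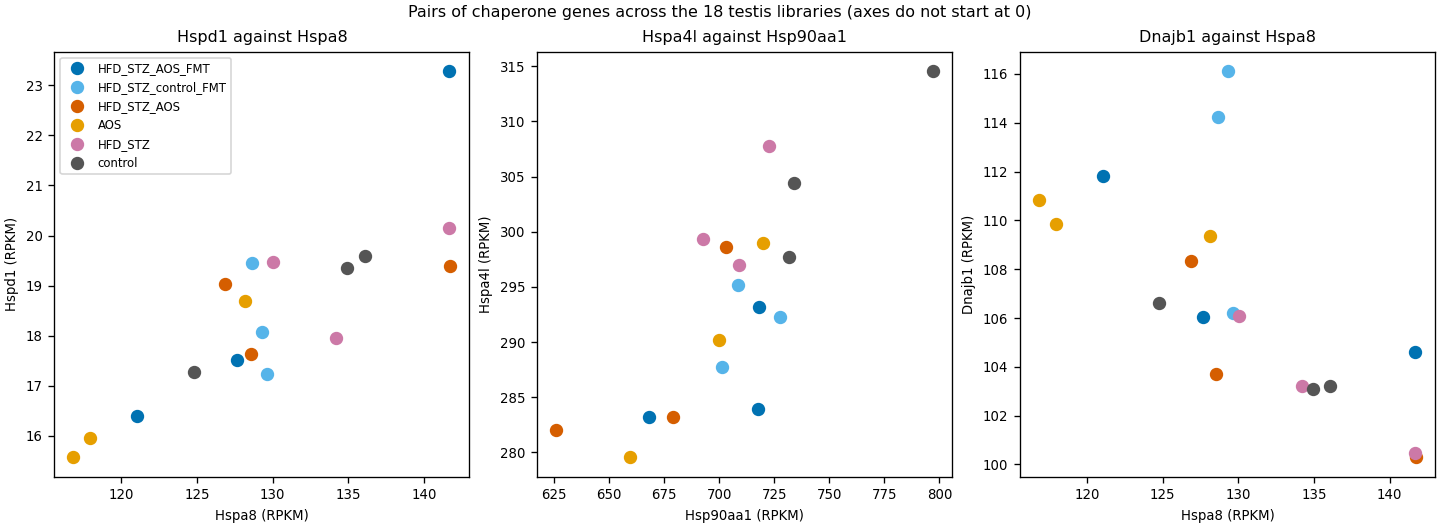
Levels in RPKM of 3 pairs of members in the 18 libraries, 1 point per library, coloured by group (axes do not start at 0). Hspd1 is high where Hspa8 is high (r = 0.85), Hspa4l where Hsp90aa1 is high (r = 0.80), and Dnajb1 is low where Hspa8 is high (r = -0.69).

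Other pairs went the same or the opposite way. Hspa8 and Hsp90ab1, both constitutive forms, had r = 0.72 and rho = 0.68 (permutation p = 0.00086 and 0.0024). Hspa8 and Dnajb1 had r = -0.69 and rho = -0.73 (permutation p = 0.0017 and 0.00083), with r = -0.62 without the 2 farthest libraries and r = -0.69 within groups. Hspa1l and Hsp90ab1 had r = -0.66 and rho = -0.66 (permutation p = 0.0042 and 0.0038), but r = -0.40 without the 2 farthest libraries, so that relation rests in part on them. With libraries scaled by median ratios, r was 0.52 for Hspa8 and Hsp90ab1, -0.72 for Hspa8 and Dnajb1 and -0.62 for Hspa1l and Hsp90ab1. With the length trend removed it was 0.57, -0.77 and -0.64 in that order. The total RPKM of a library moved with several members, with r = -0.64 for Hspa4l, r = -0.63 for Hsp90aa1 and r = 0.62 for Dnajb1. The part of that total in these correlations was not tested.

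The gene most like each member over the 18 libraries, among 8733 genes with a mean of at least 5 RPKM, was found as a description. It was Nedd4, a ubiquitin ligase, for Hspa8 (r = 0.90), Ctsb, a lysosomal protease, for Hsp90ab1 (r = 0.90) and Ube2s, a ubiquitin-conjugating enzyme, for Dnajb1 (r = 0.90). For Hspa4l it was Ipo5, a nuclear import receptor (r = 0.89, and 0.66 with the length trend removed), and for Hsp90aa1 it was Lancl2 (r = 0.88). Hspa5 was most like Chdh, a choline dehydrogenase (r = 0.85), Hspd1 most like Hnrnpab, an RNA-binding protein (r = 0.81, and 0.65 without the 2 farthest libraries and 0.60 with the length trend removed), and Hspa2 most like Ccdc191 (r = 0.71). Knstrn, a spindle protein, for Hspa1l (r = 0.88, rho = 0.55) and Cyb5r2 for Hsph1 (r = 0.81, rho = 0.65) rested in part on 2 libraries, since r without the 2 farthest was 0.70 and 0.52.

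The wider chaperone network was read from 9 lists of 111 genes, of which 107 were tested. In the 6 comparisons of 2 groups and in the interaction 0 of 107 were called, and 3 to 16 had an unadjusted p under 0.05, where the share of all genes was 4.58% to 16.2%. The main effect of HFD_STZ called 3 of 107 genes, all of which rose, beside 2.85% of all genes, and the median difference of the 107 was 0.003 beside 0.03 over all genes. Atf4, a transcription factor of the stress response to unfolded protein, averaged 25.1 ± 1.24 RPKM with HFD_STZ and 21.9 ± 0.766 RPKM without it (SD, n = 6 each), a difference of 0.19 ± 0.03 with an adjusted p of 0.0164 (limma), which became 0.0853 without the 4 libraries high in Crisp1. Dnajc5g, a testis J protein, averaged 127 ± 8.91 and 105 ± 3.56 RPKM in that order, with an adjusted p of 0.0389. Hspb11, a component of intraflagellar transport, averaged 34.4 ± 6.34 and 27.2 ± 2.25 RPKM, with an adjusted p of 0.0462.

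Of the 20 endoplasmic reticulum genes, Atf4 was the 1 that rose, and 10 were higher and 10 lower. Ddit3, Xbp1, Herpud1 and Calr, other genes of that response, did not pass. The 9 chaperonin subunits of the TRiC complex had 0 called, with 4 higher and 5 lower, and the 9 heat shock factors and targets tested had 0 called, with 3 higher and 6 lower. Small heat shock proteins had the largest median difference, 0.24, with 6 higher and 2 lower. In that list 4 of 8 had an unadjusted p under 0.05 (limma), as had 4 of 10 mitochondrial genes, beside 18.8% of all genes. The mitochondrial list had 7 higher and 3 lower. J proteins had 12 higher and 12 lower, co-chaperones 12 and 9, other HSP70 and HSP110 genes 4 and 4, and other HSP90 and HSP60/HSP10 genes 2 and 1.

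The main effect of AOS called 2 of 107 genes beside 2.34% of all genes, a share that, as given above, went to 0 under several omissions of 1 library. Dnajc5b, a J protein of testis, rose, with 267 ± 16.4 RPKM with AOS and 231 ± 9.20 RPKM without it, an adjusted p of 0.0477 (limma). Hsp90b1, the HSP90 of the endoplasmic reticulum, fell by 0.12 on the log2 scale, with 231 ± 6.39 and 251 ± 10.8 RPKM in that order (SD, n = 6 each) and an adjusted p of 0.0474. Both stood near the threshold, as did Dnajc5g and Hspb11, and these 4 lost it in 15 to 19 of the 26 alternative settings. Among the 107 genes, 47 were higher and 60 lower with AOS, and 26 had an unadjusted p under 0.05 (limma), beside 20.7% of all genes. In the endoplasmic reticulum list 7 were higher and 13 lower, and 7 of 20 had such a p. J proteins had 14 higher and 10 lower. The lists were chosen with earlier results of these data known and are not independent evidence of a direction.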

How the data were processed

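Per the labels' protocols, frozen testes gave total RNA and Illumina libraries. The submitters' processing notes name Bowtie 0.12.2 and mm10 without giving their roles. For the counting tool, annotation and strand use, the sources used here give nothing. What the authors deposited is RPKM per gene symbol, rounded to hundredths, in 18 columns, and whether reads or fragments were counted is not stated. The unit was inferred from the values. The table had 20985 rows, and 6 rows of 3 repeated symbols were left out.

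Values were taken as log2(RPKM + 1). The 13874 genes that reached 1 RPKM in 3 or more libraries were fitted with limma 3.58.1 (R 4.3.3) using its mean-variance trend, 1 coefficient for each of 6 groups and 12 residual degrees of freedom. Tests were two-sided, with the Benjamini-Hochberg adjustment over those genes and a threshold of 0.05. A set is given as not overlapping when every library of one group lies beyond every library of the other. The fit was tested on simulated data. Alternatives were a pseudocount of 0.1, no filter on low values, scaling by median ratios, fits of only the compared groups, a replicate block, robust empirical Bayes, a lowess correction of every library for transcript length (GENCODE vM21 lengths for 97.7% of tested genes, span 0.3) and leaving out each library. Leaving out the 4 libraries with more than 100 RPKM of Crisp1 was added after the data were seen. Transcript length was that of the longest annotated transcript, 9479 bases for Hspa4l and 2394 to 3802 bases for the other members. The lengths behind the deposited RPKM and those of the transcripts present in these testes are not known here.

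Depth is not given. Steps between low RPKM values implied 12760000 to 13550000 reads per library when implied depths were limited to 9000000 to 20000000. That window was narrowed after seeing estimates from a wider one: within 3000000 to 40000000, 2 libraries, HFD_STZ_AOS replicate 3 and HFD_STZ_AOS_FMT replicate 3, came out at 7140000 and 6860000. The estimate therefore does not show equal depth, and no value in the text was scaled by it.

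All 10 members are named. Other chaperone genes came from 9 lists, and those past the threshold are named. The members and lists were chosen with earlier results of these data known. Python 3.11.15, numpy 2.4.6, pandas 2.3.3 and matplotlib 3.10.9 handled sequences and plots.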

Additional observations from a re-analysis of the deposited data

How the results depend on the processing

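Over 26 alternative settings, 0 of the 10 members were called in every comparison and the F test, with 1 exception: without HFD_STZ_AOS replicate 2, the main effect of HFD_STZ called 1, Hsph1, at a difference of -0.15 and an adjusted p of 0.0386 (range over the omissions of 1 library, 0 to 1). The cause was not tested. Directions were less stable than this. Of the 90 differences of members between groups, 45 changed sign in at least 1 setting, among them 8 of 10 for HFD_STZ against control and 1 of 10 for AOS against control. Full results by setting were tabled for the differences with an unadjusted p under 0.05 or with groups that did not overlap, a choice made after the values were seen. Among those the sign reversed for Hspa4l with the trend on transcript length removed, to 0.00512 (adjusted p 0.976) for AOS against control, 0.00788 (0.928) for the main effect of AOS, 0.0304 (0.834) for HFD_STZ_AOS_FMT against HFD_STZ and 0.0595 (0.583) for HFD_STZ_control_FMT against HFD_STZ. Shared replicate numbers gave no clear sign of pairing: correlations of same-numbered deviations ran from -0.14 to 0.28, and in no comparison did all 3 exceed 0.1. With 3 libraries in a group, these correlations cannot exclude pairing. With the replicate block 0 of 10 members were called in each comparison, and the smallest adjusted p was 0.0615, for Hsp90aa1 in the main effect of AOS. Of the other chaperone genes called, Atf4 kept its call in 25 of 26 settings, Dnajc5g in 11, Dnajc5b in 9, and Hspb11 and Hsp90b1 in 7 each. Over all genes, the main effect of HFD_STZ called 396, against 259 with scaling by median ratios, 205 with no filter and 133 with only the compared groups, and that of AOS called 325, against 200, 142 and 565 in that order. Over all settings they ran from 36 to 695 and from 0 to 779.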
